A study of Mus musculus with 9 samples.

Results

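The comparison described here set the livers of mice lacking SMRT alone against the livers of 2 groups at once, mice with both corepressor genes intact and mice lacking both. It asks which genes stood apart in SMRT knockout livers while the double knockout livers were back at, or past, the control level. The members are 3 of the 9 arrays of the series, chosen by their titles, and the remaining 6 arrays are the comparison. The control mice carried floxed alleles of the SMRT and NCoR genes with no deletion of either in the labels (3 mice). The SMRT KO mice lacked SMRT in the liver (3 mice), and the double KO mice had a liver-specific loss of SMRT together with NCoR (3 mice). All 9 were individual euthyroid females of a 129SV/B6 mixed background, aged 7 to 9 weeks and fed standard chow, and 200 ng of liver RNA from each was labelled for an Affymetrix whole-transcript array. The labels give neither the Cre driver that makes the deletion liver specific nor the NCoR allele of the SMRT KO mice, and the sources used here hold no group lacking NCoR alone. The effect of losing NCoR without losing SMRT therefore cannot be told apart from the effect of losing both.

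SMRT and NCoR are related scaffold proteins that bind nuclear receptors lacking an activating ligand, among them the thyroid hormone, retinoic acid, liver X and peroxisome proliferator-activated receptors. They carry histone deacetylase 3 to the receptor's target genes, which holds transcription low, and hormone binding releases them. In the liver these receptors control lipid synthesis, fatty acid oxidation, bile acid production and the handling of thyroid hormone and retinoids.

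Values are log2 expression levels as deposited, so a difference of 1 is a doubling. Levels of different genes come from different probe sets and are not compared with each other. The 9 arrays had medians between 5.96 and 6.02, and 2 arrays of the same group correlated at 0.987 to 0.992, against 0.983 to 0.989 for arrays of different groups. The labelled tissue carried its defining transcripts. The 17 measured hepatocyte markers averaged 12.64 to 12.65 in control, 12.57 to 12.68 in SMRT KO and 12.47 to 12.51 in double KO livers. As a guide to the dim end of the scale, 1390 olfactory and vomeronasal receptor genes had array medians of 3.73 to 4.13. The deleted genes themselves were not checked here.

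Across 22180 genes, 30 differed between SMRT KO livers and the equal-weight mean of control and double KO livers (limma, Benjamini-Hochberg adjusted p below 0.05), which is 0.135% of the genes tested. Of these, 12 were higher (0.0541%) and 18 were lower in SMRT KO (0.0812%). The differences spread around 0, with a median of -0.00068 over all genes and 49.7% of genes above 0. Called on their own, SMRT KO against control gave 1 gene (0.00451%) and SMRT KO against double KO gave 263 genes (1.19%), 97 higher in SMRT KO (0.437%) and 166 lower (0.748%). The same SMRT KO livers enter both. No gene passed limma in both of these with the same sign (0%), whereas 180 higher genes (0.812%) and 169 lower genes (0.762%) had an unadjusted p below 0.05 in both. Among the 30 calls, 28 also passed limma when the double KO livers alone were the reference, whereas 0 passed when the control livers alone were. In 19 of the 30, the double KO livers themselves differed from the controls by limma. So few genes passed the comparison with both other groups, and none passed each group separately.

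The 30 calls depended on every liver. Leaving out 1 liver gave between 0 calls, without SMRT KO replicate 3, and 16 calls, without control replicate 3. Dropping the first or the second SMRT KO liver left 1 or 2 calls. Dropping control replicate 1 left 8 and control replicate 2 left 14. The double KO livers gave 10 calls when replicate 1 was dropped and 5 calls when either of the others was. Without SMRT KO replicate 3, 2048 genes still had an unadjusted limma p below 0.05, against 1768 (7.97%) with all 9 livers. Of the 30 calls, 15 held in none of these 9 fits, 10 in 1 to 3, 5 in 6 or more and 0 in all 9. Down-weighting of noisy arrays gave 12 calls, and a fit that treated control and double KO livers as a single group gave 0, with 1345 genes at an unadjusted p below 0.05.

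A gene was counted as standing apart in SMRT KO alone when all 3 SMRT KO values lay beyond the 6 others, the double KO mean was at or past the control mean or short of it by at most 0.1, and the highest group mean was at least 5. All 3 SMRT KO values lay beyond the 6 others for 584 genes (2.63%), 274 above (1.24%) and 310 below (1.4%). Full separation of 3 values from 6 others can also arise with no group difference. How many of the 584 genes arose that way was not tested. Of all genes, 442 stood apart in SMRT KO alone (1.99%), 230 higher (1.04%) and 212 lower (0.956%). Most of these differences were small, with a median size of 0.21, and 33 of the 442 were at least 1.5-fold and 12 at least 2-fold. Double KO livers lay within 0.1 of control for 165 of the higher and 128 of the lower genes, and past control by more for the other 65 and 84. No single SMRT KO liver supplied the extremes, since replicates 1, 2 and 3 were farthest out for 77, 69 and 84 of the higher genes and for 81, 63 and 68 of the lower genes. Leaving out SMRT KO replicates 1, 2 and 3 in turn raised the count to 1121, 1212 and 1628, since 2 values then had to lie apart in place of 3.

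**Figure D1:**
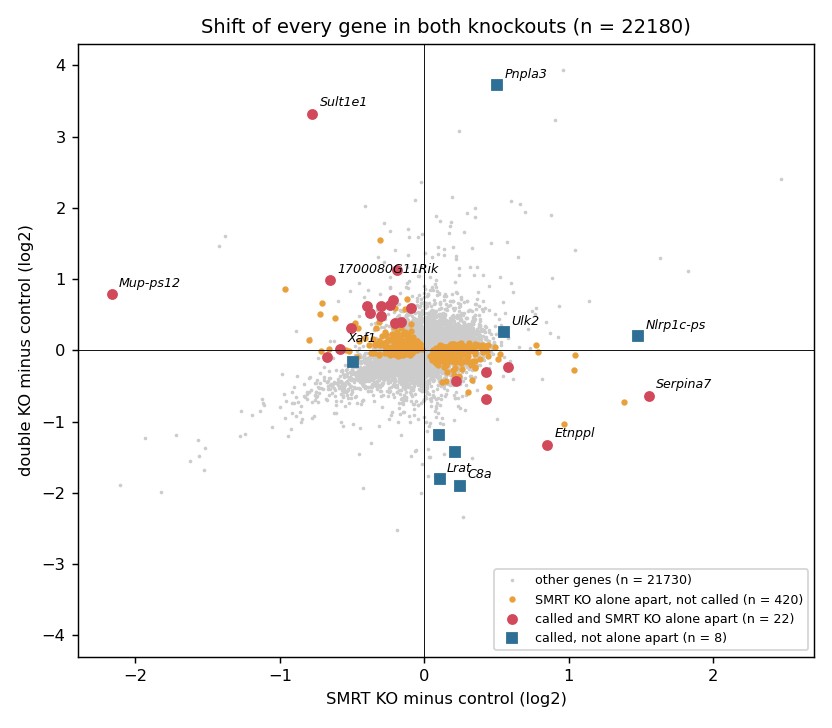
Each point is 1 of 22180 genes, with its SMRT KO minus control difference (log2) on the horizontal axis and its double KO minus control difference (log2) on the vertical axis. Orange points are the 420 genes apart in SMRT KO alone that were not called, red points the 22 that were called, and blue squares the 8 called genes that did not stand apart alone; Mup-ps12 lies farthest left among the called genes and Serpina7 farthest right.

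Of the 30 called genes, 22 met the definition of standing apart in SMRT KO alone, 6 higher and 16 lower. The term does not mean that double KO stayed at the control level. They are described below by what the double KO livers did against control: 8 whose double KO level did not pass limma against control and 14 whose double KO level passed on the far side of control. The control livers enter both differences, so this split is a description. Sult1e1, 1 of the 14, reached the level minimum only through double KO (mean 8.29), with means of 4.96 in control and 4.19 in SMRT KO. The other 21 of the 22 genes had means of at least 6.22 in every group.

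Serpina7 encodes thyroxine-binding globulin, a plasma carrier of thyroid hormone made by the liver. Its levels were 8.42, 9.50 and 8.19 in control, 10.37, 9.95 and 10.43 in SMRT KO and 8.24, 8.22 and 7.74 in double KO livers. All 3 SMRT KO livers were above all others, and control replicate 2 was the nearest of the rest. The SMRT KO level was 3.65-fold higher than the mean of both groups (log2 difference 1.87, SE 0.265, 95% interval 1.27 to 2.47, adjusted p = 0.0451, n = 3 per group). Against control alone the difference was 1.55 (adjusted p = 0.326) and against double KO alone it was 2.19 (adjusted p = 0.0113). The call held only without control replicate 2 (adjusted p = 0.00965), and lay between 0.0818 and 0.158 without any other single liver.

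Mup-ps12, annotated as a pseudogene of the major urinary protein cluster, was lower in SMRT KO than in the mean of both groups. Its levels were 9.99, 10.19 and 10.14 in control, 8.43, 7.14 and 8.25 in SMRT KO and 10.90, 10.996 and 10.77 in double KO livers. The groups did not overlap, with control between the knockouts and SMRT KO replicate 2 the lowest liver. SMRT KO was 5.88-fold lower than the mean of both (log2 difference -2.56, SE 0.238, adjusted p = 0.0104), -2.16 against control (adjusted p = 0.0924) and -2.95 against double KO (adjusted p = 0.00204). The call held in 8 of the 9 fits that left out a liver and failed when SMRT KO replicate 3 was dropped (adjusted p = 0.0953). Major urinary protein genes are near-identical copies, so this probe set can take signal from several of them and its identity is uncertain. Of 24 listed cluster genes, 6 had a single-symbol probe set, and Mup-ps12 was the 1 that was called. Mup21 had group means of 5.50, 5.53 and 3.74 in control, SMRT KO and double KO (contrast 0.91, adjusted p = 0.35), with double KO at the level of the receptor genes. The contrasts of Mup3, Mup5, Mup6 and Mup20 were 0.24, -0.28, -0.14 and -0.37 (adjusted p = 0.692, 0.684, 0.843 and 0.64), of which Mup3 and Mup6 were named after their values were seen.

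Xaf1, an interferon-inducible partner of the apoptosis inhibitor XIAP, was lower in SMRT KO than in the mean of both groups. Its levels were 8.60, 8.43 and 8.65 in control, 7.89, 8.05 and 7.996 in SMRT KO and 8.52, 8.64 and 8.55 in double KO livers. The control and double KO livers overlapped, and every SMRT KO liver lay below them. The contrast was -0.59 (SE 0.068, 1.503-fold, adjusted p = 0.0228), with -0.58 against control (adjusted p = 0.0924), -0.59 against double KO (adjusted p = 0.00809) and 0.01 between double KO and control (adjusted p = 0.976). The call held without control replicates 2 or 3 (adjusted p = 0.0248 and 0.0457) and was lost without each of the other 7 livers, at 0.0569 to 0.0953. Of 31 measured interferon response genes, Xaf1 was the 1 called, and the median contrast was 0.04. At an unadjusted p below 0.05, 4 were higher and 2 lower (3.68% and 4.29% of all genes).

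The remaining 5 genes of this kind had smaller differences. Slc22a27, an organic anion transporter, was at 9.50, 9.59 and 9.69 in control, 8.99, 9.27 and 8.99 in SMRT KO and 9.86, 10.06 and 9.80 in double KO livers (contrast -0.67, SE 0.0878, adjusted p = 0.0432). Etfbkmt, a mitochondrial lysine methyltransferase that acts on the electron transfer flavoprotein, was at 8.82, 8.52 and 8.87 in control, 9.48, 9.14 and 9.33 in SMRT KO and 8.57, 8.49 and 8.44 in double KO livers (contrast 0.70, SE 0.0974, adjusted p = 0.0437). Neither gene's SMRT KO values overlapped with another group, while control and double KO livers overlapped for Etfbkmt alone. Rasgef1b, an exchange factor for small GTPases, was at 8.98, 8.65 and 8.68 in control, 9.27, 9.00 and 9.33 in SMRT KO and 7.89, 8.28 and 8.08 in double KO livers (contrast 0.77, SE 0.114, adjusted p = 0.05). Itih5, a heavy chain of the inter-alpha-trypsin inhibitor family, was at 8.04, 7.78 and 7.97 in control, 7.38, 7.08 and 7.31 in SMRT KO and 7.68, 7.90 and 7.92 in double KO livers (contrast -0.62, SE 0.092, adjusted p = 0.05). Control and double KO livers overlapped for Itih5, which lies outside the naming rule and was named after its values were seen. Siglece, a sialic acid-binding inhibitory receptor of myeloid cells, was at 7.02, 6.88 and 7.14 in control, 7.26, 7.54 and 7.53 in SMRT KO and 6.74, 6.76 and 6.62 in double KO livers (contrast 0.58, SE 0.0848, adjusted p = 0.05). These 5 calls were lost without any single liver, at adjusted p-values between 0.0523 and 0.188. Siglece, Rasgef1b, Itih5, Saa4 and Olfr299 were the last genes inside the threshold, and the first outside it was the histone deacetylase Hdac5 (contrast -0.48, adjusted p = 0.0566).

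**Figure D2:**
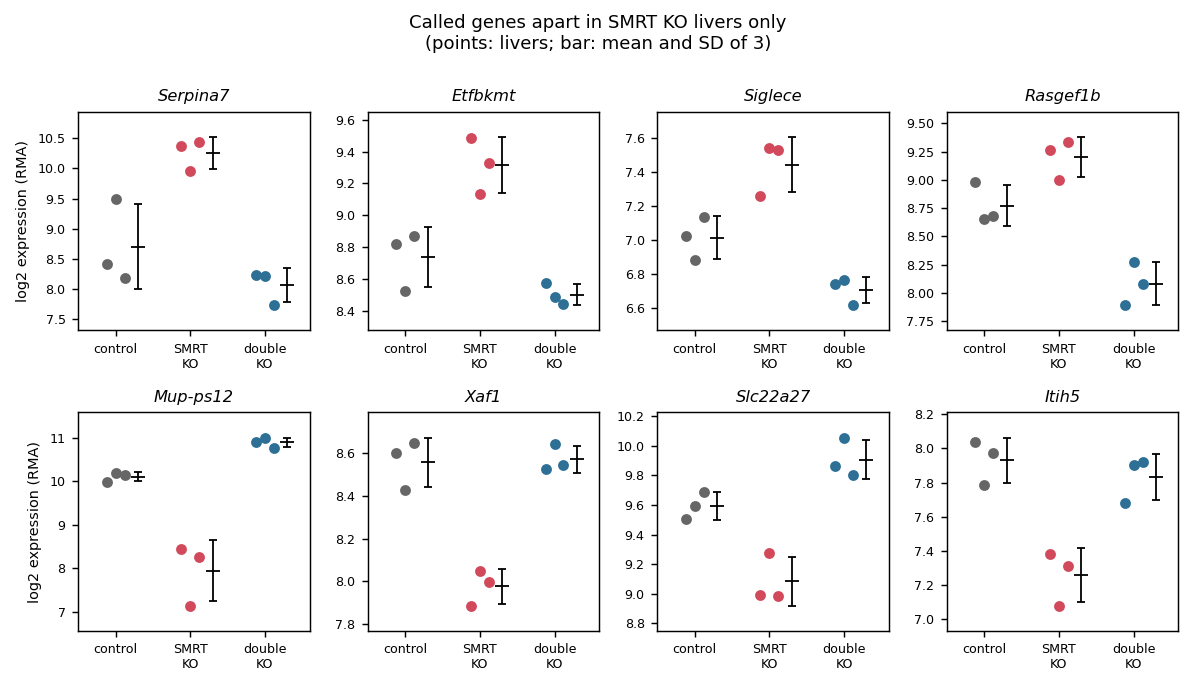
Log2 expression in each liver for the 8 called genes whose double KO level did not pass limma against control, with bars for the mean and SD of 3 livers. In every panel the 3 SMRT KO livers lie apart from the other 6; Mup-ps12 has the widest gap and Serpina7 the most scattered control livers.

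Promoter sequences are shown for 3 of the 22 genes, the hormone carrier Serpina7, the transporter Slc22a27 and the droplet protein Plin2 of the next group, because thyroid hormone and related receptors bind repeats of the hexamer AGGTCA. Each is the 250 bases before the RefSeq start site on the GRCm38.p6 assembly, 5′ to 3′ on the strand of the gene, which is the minus strand in all 3. Capitals mark TGACCT, the reverse complement of AGGTCA, and both strands were searched. The regions are chrX:139085237-139085486 for Serpina7, chr19:7966028-7966277 for Slc22a27 and chr4:86670060-86670309 for Plin2.
Serpina7: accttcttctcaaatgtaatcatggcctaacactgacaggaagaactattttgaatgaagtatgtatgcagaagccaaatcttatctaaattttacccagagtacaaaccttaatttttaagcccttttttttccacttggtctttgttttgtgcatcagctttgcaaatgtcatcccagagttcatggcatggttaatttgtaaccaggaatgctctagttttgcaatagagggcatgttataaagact
Slc22a27: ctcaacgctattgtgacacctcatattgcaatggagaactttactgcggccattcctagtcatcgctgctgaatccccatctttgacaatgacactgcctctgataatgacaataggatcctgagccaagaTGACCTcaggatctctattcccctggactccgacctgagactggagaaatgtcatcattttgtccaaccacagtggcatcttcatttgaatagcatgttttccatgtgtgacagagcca
Plin2: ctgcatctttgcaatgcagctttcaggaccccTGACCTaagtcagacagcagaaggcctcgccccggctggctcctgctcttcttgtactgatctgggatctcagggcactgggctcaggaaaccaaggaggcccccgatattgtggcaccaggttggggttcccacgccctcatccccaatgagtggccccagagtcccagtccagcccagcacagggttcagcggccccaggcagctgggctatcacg
The Serpina7 window held 0 copies of the hexamer. Slc22a27 and Plin2 each held 1, which lay 119 and 218 bases before the start. Of the 22 genes, 21 had a promoter entry and 7 of these held the hexamer (33.3%), against 3740 of 27025 promoters of the same length in the RefSeq table (13.8%). The 7 were Etfbkmt, Mup-ps12, Plin2, Saa4, Slc22a27, Sult1e1 and Xaf1. A match of 6 letters is a description of the window and not a binding site.

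The 14 other genes, like Mup-ps12, Slc22a27, Rasgef1b and Siglece, had the knockouts on opposite sides of control. In the 14, double KO also passed limma against control. Etnppl, a lyase that breaks down phosphoethanolamine, was at 10.08, 9.43 and 10.06 in control, 10.43, 10.44 and 11.24 in SMRT KO and 8.64, 8.38 and 8.57 in double KO livers. The 3 groups did not overlap, and SMRT KO replicate 3 was the highest liver. The contrast was 1.51 (SE 0.204, 2.85-fold, adjusted p = 0.0437), made of 0.85 against control (adjusted p = 0.595) and 2.17 against double KO (adjusted p = 0.00367). Saa4, a constitutive serum amyloid A carried on high-density lipoprotein, was at 12.27, 12.14 and 12.31 in control, 12.38, 12.42 and 12.58 in SMRT KO and 11.84, 11.82 and 11.78 in double KO livers (contrast 0.43, SE 0.0638, adjusted p = 0.05). Of the 14 genes, these were the 2 with SMRT KO above control and double KO below it. Both calls were lost without any single liver, at adjusted p-values of 0.0523 to 0.115 for Etnppl and 0.0669 to 0.146 for Saa4.

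The other 12 were lowest in SMRT KO and above control in double KO. Ginm1, an integral membrane glycoprotein of unknown role, was at 8.92, 8.96 and 8.95 in control, 8.45, 8.59 and 8.60 in SMRT KO and 9.56, 9.69 and 9.44 in double KO livers. The groups were far apart for their spread, with an SD of 0.021 among control livers. Its contrast was -0.71 (SE 0.0675, 1.63-fold, adjusted p = 0.0104), and the call was lost only without an SMRT KO liver, at an adjusted p of 0.0953 at most. Sel1l3, a paralog of a protein quality control factor, was at 8.16, 8.44 and 8.22 in control, 7.94, 7.91 and 7.84 in SMRT KO and 8.76, 8.77 and 8.86 in double KO livers (contrast -0.64, SE 0.071, adjusted p = 0.0173). Its call held only without each control liver.

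Metabolic genes were among them. Plin2, the main coat protein of hepatocyte lipid droplets, was at 11.05, 11.18 and 10.96 in control, 10.88, 10.90 and 10.69 in SMRT KO and 11.73, 11.57 and 11.80 in double KO livers. SMRT KO lay just below control and double KO well above it, with a contrast of -0.56 (SE 0.0795, 1.47-fold, adjusted p = 0.0451). Against control alone the SMRT KO difference was -0.24 (adjusted p = 0.826). Pdp2, a phosphatase that activates pyruvate dehydrogenase, was at 7.89, 7.69 and 7.87 in control, 7.63, 7.49 and 7.42 in SMRT KO and 8.30, 8.19 and 8.39 in double KO livers (contrast -0.54, SE 0.0749, adjusted p = 0.0437). Sult1e1, the estrogen sulfotransferase, was at 4.66, 4.67 and 5.56 in control, 4.405, 4.20 and 3.96 in SMRT KO and 7.33, 8.70 and 8.84 in double KO livers (contrast -2.44, SE 0.333, adjusted p = 0.0437). Its SMRT KO values lay near the medians of the receptor genes, so its place below control (-0.78, adjusted p = 0.853) was measured at background level. Plin2 and Pdp2 were called in no fit without a liver (adjusted p 0.0669 to 0.145 and 0.0523 to 0.148), and Sult1e1 only without double KO replicate 1 (0.0134).

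The transcript 1700080G11Rik is uncharacterised. It was at 9.85, 9.55 and 9.46 in control, 9.14, 9.07 and 8.69 in SMRT KO and 10.55, 10.41 and 10.84 in double KO livers (contrast -1.14, SE 0.134, 2.21-fold, adjusted p = 0.0229, held only without control replicate 3). Synj2, a phosphoinositide phosphatase of endocytosis, had group means of 6.41, 6.22 and 7.53 in control, SMRT KO and double KO (contrast -0.75, SE 0.082, adjusted p = 0.0173). Atat1, the tubulin acetyltransferase, had means of 8.06, 7.76 and 8.69 (contrast -0.62, adjusted p = 0.0437), and Uck1, a pyrimidine nucleoside kinase, had 7.57, 7.35 and 8.27 (contrast -0.57, adjusted p = 0.0364). Mapk6, an atypical MAP kinase, Tmem135, a membrane protein of mitochondria and peroxisomes, and Dhrs7b, a peroxisomal reductase of ether lipid synthesis, had contrasts of -0.37, -0.39 and -0.39 (adjusted p = 0.0437, 0.0437 and 0.0451). In each of these 6 genes double KO lay farther from control than SMRT KO did: SMRT KO lay 0.09 (Tmem135) to 0.30 (Atat1) below control, and double KO lay 0.38 (Dhrs7b) to 1.13 (Synj2) above it. Mapk6, Tmem135 and Dhrs7b were called in no fit without a liver (adjusted p 0.0628 to 0.148). The call of Atat1 held only without control replicate 3, that of Uck1 without control replicate 3 or double KO replicate 1, and that of Synj2 without control replicate 2, control replicate 3 or double KO replicate 1.

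**Figure D3:**
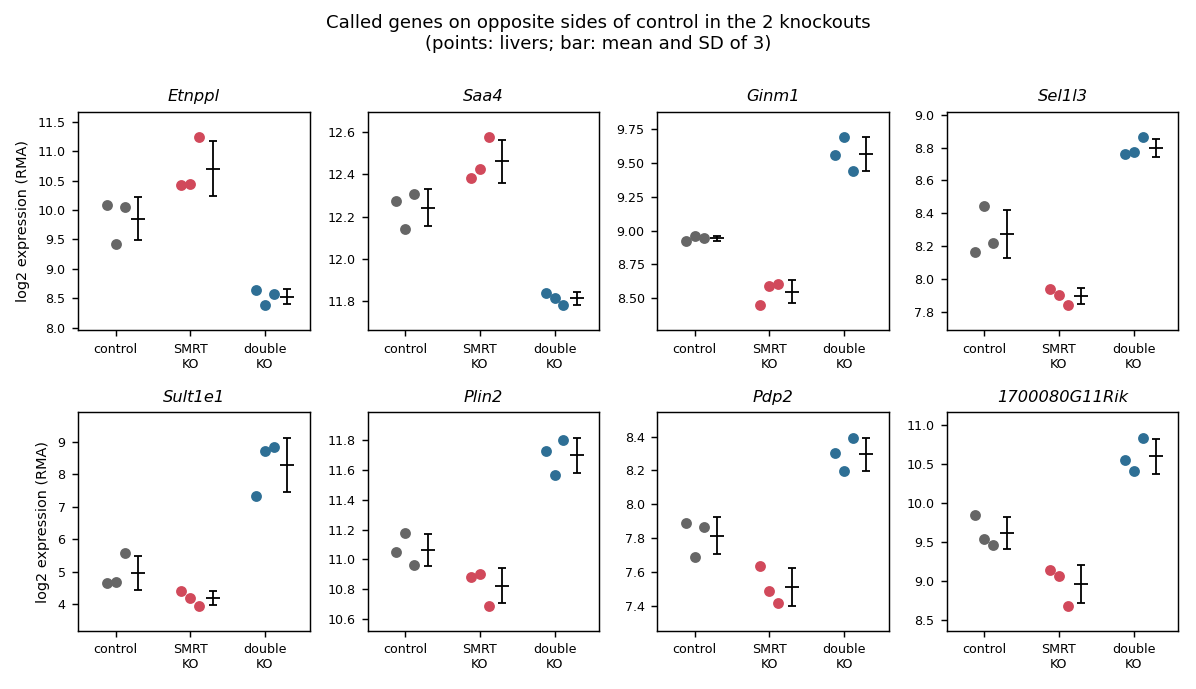
Log2 expression in each liver for 8 of the 14 called genes with the knockouts on opposite sides of control, with bars for the mean and SD of 3 livers. Etnppl and Saa4 are highest in SMRT KO and lowest in double KO, and the other 6 genes run the other way; in all 8 the control mean lies nearer to the SMRT KO mean than to the double KO mean.

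Over all genes, the 3 groups were fully separated in this order for 104: SMRT KO was the lowest and double KO the highest for 71 (0.32%), and SMRT KO was the highest and double KO the lowest for 33 (0.149%). Of the 30 called genes, 18 had such an order, 14 with SMRT KO lowest and 4 with SMRT KO highest.

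The last 8 called genes did not stand apart in SMRT KO alone, and in 5 of them the double KO livers lay farthest from the rest. Pnpla3, a lipid droplet lipase and acyltransferase, had group means of 6.35, 6.85 and 10.07 in control, SMRT KO and double KO, so its contrast of -1.36 (adjusted p = 0.0104) goes with an SMRT KO level 0.50 above control. Lrat, which esterifies retinol for storage, had means of 8.86, 8.97 and 7.06 (contrast 1.01, adjusted p = 0.0173), and C8a, a chain of complement component C8, had 10.80, 11.04 and 8.90 (contrast 1.20, adjusted p = 0.0104). Lrrc3 had means of 9.09, 9.19 and 7.90 (contrast 0.69, adjusted p = 0.0104), and Tedc2, a centriole protein, had 9.48, 9.69 and 8.06 (contrast 0.93, adjusted p = 0.0437). SMRT KO and control livers overlapped in Lrat, C8a, Lrrc3 and Tedc2, and Pnpla3 had double KO livers far above both. A further pair stood apart with double KO short of control. Ulk2, an autophagy-initiating kinase, was at 9.12, 9.17 and 9.09 in control, 9.74, 9.71 and 9.59 in SMRT KO and 9.37, 9.38 and 9.43 in double KO livers (contrast 0.42, SE 0.054, adjusted p = 0.0398). Nlrp1c-ps, an inflammasome sensor pseudogene, was at 3.76, 3.66 and 4.21 in control, 5.06, 5.25 and 5.77 in SMRT KO and 4.06, 3.97 and 4.22 in double KO livers (contrast 1.38, SE 0.165, adjusted p = 0.0252), and its control and double KO values were as dim as the receptor genes. The eighth, the odorant receptor Olfr299, lies at that dim level in every group and outside the naming rule. Calls of Pnpla3, Lrrc3 and C8a were lost only without an SMRT KO liver (adjusted p up to 0.0953), that of Lrat held only without each control liver, that of Nlrp1c-ps only without control replicate 3, and those of Tedc2, Ulk2 and Olfr299 in no fit without a liver (0.054 to 0.167).

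Among the 420 genes apart in SMRT KO alone that were not called, several had large differences. 2610507I01Rik, an uncharacterised transcript, was at 6.14, 6.34 and 7.67 in control, 8.001, 7.99 and 8.30 in SMRT KO and 5.98, 6.05 and 5.96 in double KO livers (contrast 1.74, SE 0.281, adjusted p = 0.0711). Control replicate 3 was far above the other control livers, and without it the gene passed (contrast 1.98, adjusted p = 0.000307). Rian, an imprinted noncoding RNA, was at 6.37, 5.73 and 6.36 in control, 6.94, 7.83 and 6.61 in SMRT KO and 5.20, 4.83 and 5.33 in double KO livers (contrast 1.49, SE 0.258, adjusted p = 0.0798). Rarres1, a retinoid-responsive membrane protein, was at 8.45, 8.84 and 8.42 in control, 8.27, 7.47 and 7.07 in SMRT KO and 9.21, 9.40 and 9.68 in double KO livers (contrast -1.40, SE 0.232, adjusted p = 0.0777). The SMRT KO livers spread over more than the gap to control in Rian and Rarres1. Gask1a, Lyrm7, a mitochondrial complex III assembly factor, and Smim22 had contrasts of -1.09, 1.08 and -1.04 (adjusted p = 0.0777, 0.076 and 0.106). Gbp10, an interferon-inducible GTPase, Pde7b, a cyclic AMP phosphodiesterase, and Car3, an abundant carbonic anhydrase, had 0.70, 0.59 and 0.36 (adjusted p = 0.0812, 0.0777 and 0.0798).

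Dio1, the deiodinase that activates thyroid hormone in the liver, was another uncalled gene apart in SMRT KO. It was at 11.25, 11.26 and 11.25 in control, 10.97, 10.73 and 9.67 in SMRT KO and 11.37, 11.45 and 11.39 in double KO livers. The 3 groups did not overlap, and SMRT KO replicate 3 lay far below the other SMRT KO livers. The contrast was -0.87 (SE 0.23, adjusted p = 0.311) and -0.48 without that liver. Cyp26a1, which breaks down retinoic acid, was a counterexample: its means were 7.34, 9.81 and 9.74 in control, SMRT KO and double KO, so both knockouts lay above control together (contrast 1.27, adjusted p = 0.3). Elapor1 also had both knockouts above control, with means of 6.26, 7.30 and 7.67 in the same order (contrast 0.34, adjusted p = 0.164).

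Of 19 measured thyroid hormone-induced liver genes, 0 were called, 2 were higher and 10 were lower in SMRT KO at an unadjusted limma p below 0.05, where 3.68% and 4.29% of all genes were. The median contrast was -0.27, against -0.00068 over all genes, and it combined -0.12 against control with -0.57 against double KO. Nrp2, a semaphorin co-receptor, stood apart in SMRT KO alone with means of 7.83, 7.54 and 8.30 in control, SMRT KO and double KO (contrast -0.53, adjusted p = 0.0711). Acaca, which makes malonyl-CoA, Gpd2, the mitochondrial glycerol phosphate dehydrogenase, and Me1, the cytosolic malic enzyme, had contrasts of -0.60, -0.68 and -0.91 (adjusted p = 0.0777, 0.106 and 0.138), with SMRT KO 0.12, 0.24 and 0.20 below control on average and overlapping it. Thrsp, a regulator of lipid synthesis, had means of 9.79, 9.84 and 11.10 (contrast -0.60, adjusted p = 0.718). Fasn had means of 11.47, 11.43 and 12.51 (contrast -0.56, adjusted p = 0.257). Pck1, the gluconeogenic enzyme, went the other way with means of 13.01, 13.09 and 12.32 (contrast 0.42, adjusted p = 0.057). So apart from Dio1 and Nrp2, the listed genes had SMRT KO livers overlapping another group.

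Of the lipid genes, 1 in synthesis and 1 in droplets were called, both lower in SMRT KO than in the mean of both groups. For scale, 4.29% of all genes were lower at an unadjusted limma p below 0.05, and 1.99% stood apart in SMRT KO alone. In fatty acid and triglyceride synthesis 21 of 24 genes were below 0, 10 of them at an unadjusted p below 0.05, and the 1 called gene was Pnpla3. The median was -0.22, but it was 0.01 against control and -0.53 against double KO, and 0 of the 24 stood apart in SMRT KO alone. Elovl3 had the largest contrast of the list, -2.16 (adjusted p = 0.2), with means of 8.38, 6.96 and 9.85 in control, SMRT KO and double KO. In lipid droplets and storage 19 of 21 were below 0 and Plin2 was called, with medians of -0.08 against control and -0.33 against double KO. At an unadjusted p below 0.05, 5 were lower and 2 higher, where 3.68% of all genes were higher. The 2 higher were Angptl8, with means of 8.50, 9.26 and 9.01 in control, SMRT KO and double KO (contrast 0.51, adjusted p = 0.138), and Pparg, with 8.07, 8.63 and 8.60 (contrast 0.29, adjusted p = 0.316). In fatty acid oxidation and ketogenesis 21 of 28 were below 0, 11 at an unadjusted p below 0.05, with 0 called and 3 apart in SMRT KO alone. Acaa1a, a peroxisomal thiolase, was 1 of the 3, with means of 8.55, 8.27 and 8.65 in control, SMRT KO and double KO (contrast -0.33, adjusted p = 0.197). Cholesterol synthesis and uptake had 18 of 19 genes below 0 and a median of -0.15, with 2 at an unadjusted p below 0.05 and 0 called. LXR targets had 10 of 14 below 0, 6 at an unadjusted p below 0.05, and 0 called.

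Bile acid genes held 2 of 23 that stood apart in SMRT KO alone, where 1.99% of all genes did. Cyp2c70, which makes muricholic acids, was at 12.58, 12.51 and 12.65 in control, 12.30, 12.37 and 12.19 in SMRT KO and 12.72, 12.85 and 12.76 in double KO livers (contrast -0.39, SE 0.063, adjusted p = 0.0711). Cyp7b1, the oxysterol hydroxylase of the acidic pathway, had means of 10.19, 9.53 and 10.21, with SMRT KO lowest in replicate 3 at 9.00 (contrast -0.67, SE 0.213, adjusted p = 0.444). Neither passed, and the list had 0 calls. At an unadjusted p below 0.05, 2 genes were higher and 8 lower (3.68% and 4.29% of all genes). The corepressor complex and its partners also had 0 calls among 22 measured genes and a median of 0.01. In that list, Hdac5, a class IIa histone deacetylase, had means of 8.10, 7.97 and 8.81, Tbl1x, a subunit of the corepressor complex, had 9.08, 9.32 and 9.12 (contrast 0.22, adjusted p = 0.34), and Nrip1, another receptor corepressor, had 7.70, 7.56 and 7.83 (contrast -0.21, adjusted p = 0.573). These 3 of the 22 stood apart in SMRT KO alone, against 1.99% of all genes. The lists of retinoid handling, glucose metabolism, the circadian clock, xenobiotic metabolism, the acute phase, autophagy, NRF2 targets, ER stress and sex-biased liver genes had medians between -0.07 and 0.05. Their calls were Lrat, Sult1e1, Saa4 and Ulk2. Medians near 0 included genes that moved in both directions. At an unadjusted p below 0.05, 6 of 18 male-biased genes were higher and 3 lower, with contrasts from -2.16 to 1.44. Of 20 female-biased genes 2 were higher and 5 lower, with contrasts from -2.19 to 1.26. Glucose genes had 6 of 20 higher and 2 lower, retinoid genes 3 of 24 higher and 4 lower, and NRF2 targets 3 of 13 in each direction.

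**Figure D4:**
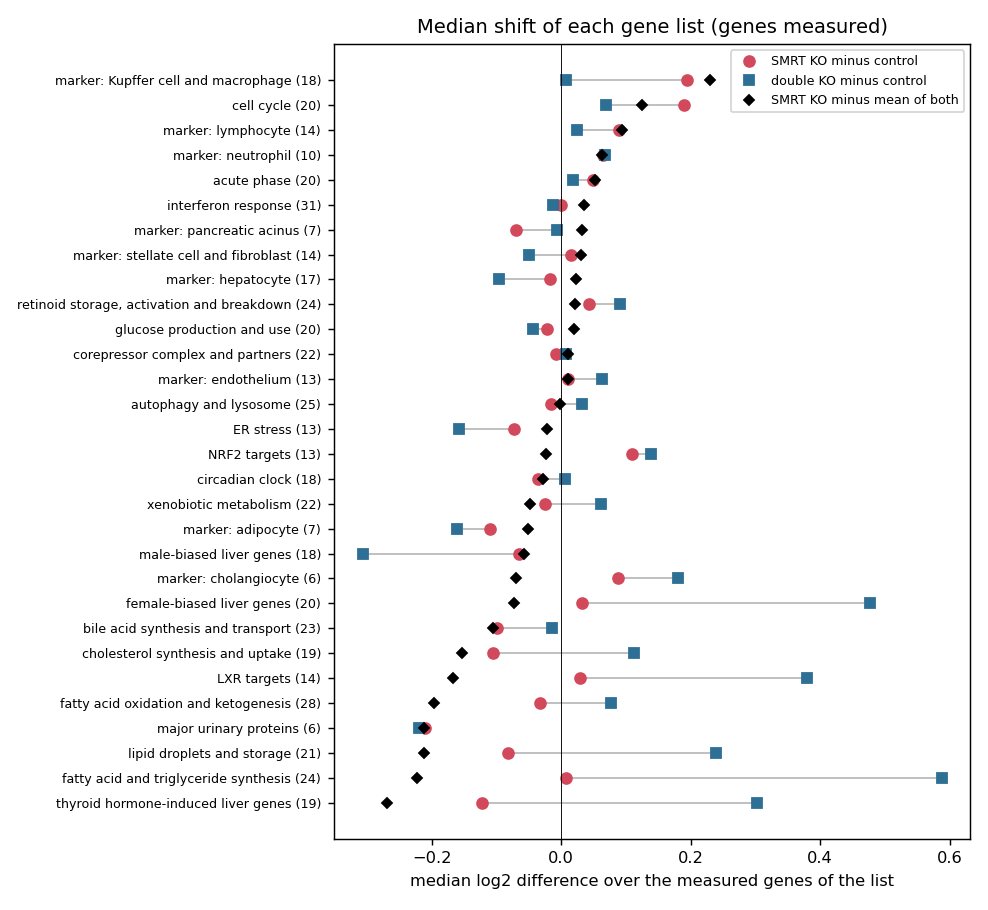
Median log2 difference over the measured genes of each list (number in brackets) for SMRT KO minus control (red), double KO minus control (blue) and SMRT KO minus the mean of both (black). Macrophage markers have the highest black point, at 0.23, and thyroid hormone-induced genes the lowest, at -0.27; for the synthesis and LXR lists the red point sits near 0 and the blue point well above it.

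The list with the highest median was that of Kupffer cell and macrophage markers. Of 18 measured, 17 were above 0, 9 at an unadjusted p below 0.05, 0 were called, and the median contrast was 0.23. Of all genes, 3.68% were higher at that threshold. Their mean level was 8.13 to 8.31 in control, 8.31 to 8.53 in SMRT KO and 8.10 to 8.25 in double KO livers. Adgre1, the F4/80 antigen, was at 8.34, 8.27 and 8.33 in control, 8.33, 8.71 and 8.96 in SMRT KO and 8.04, 8.34 and 8.17 in double KO livers (contrast 0.42, SE 0.124, adjusted p = 0.385). Vsig4, a complement receptor of Kupffer cells, was at 10.18, 9.82 and 10.12 in control, 10.25, 10.48 and 10.27 in SMRT KO and 9.79, 10.11 and 9.84 in double KO livers (contrast 0.35, SE 0.104, adjusted p = 0.38). SMRT KO livers were above all others for Vsig4 and overlapped control for Adgre1. In RNA from whole liver, more cells of a type and more RNA per cell cannot be told apart. Siglece moved in the same direction as these markers, and their part in its difference was not tested. Cell cycle genes had 16 of 20 above 0, 6 at an unadjusted p below 0.05, 0 called and a median of 0.12, and lymphocyte markers 12 of 14 above 0 with a median of 0.09. Markers of stellate cells, endothelium, neutrophils, cholangiocytes, adipocytes and pancreatic acini had medians between -0.07 and 0.06, and the 1 call among them was Lrat, also a stellate cell marker.

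A pattern along the chromosomes was looked at after the data were seen. Among the 400 measured genes nearest to the NCoR gene on chromosome 11, 200 on each side in RefSeq order (GRCm38.p6), 4 were called (1%, against 0.135% of all genes) and 24 had all 3 SMRT KO values beyond the 6 others (6%, against 2.63%). The 1249 other measured genes of chromosome 11 held 0 calls and 38 such genes (3.04%). The 4 called genes were Ulk2, the fifth gene before NCoR, Dhrs7b, 26 genes before it, and Nlrp1c-ps and Xaf1, 168 and 181 genes after it. Lyrm7, Zfp39, 2610507I01Rik, Shmt1 and Gm12248 lie 145, 80, 71, 27 and 119 genes before NCoR. They were beyond the 6 others and not called, with contrasts of 1.08, 0.74, 1.74, -0.43 and -0.55. The remaining uncalled genes of this kind ran in size from 0.11 (Tmem95) to -0.33 (Slc22a5). Zfp39, Shmt1, Gm12248, Tmem95 and Slc22a5 lie outside the naming rule and were named after their values were seen. The directions were mixed. Around the SMRT gene on chromosome 5, 0 of 400 genes were called and 11 (2.75%) lay beyond the 6 others, against 3 calls (0.348%) and 33 such genes (3.83%) among the 861 other measured genes of that chromosome. The mice were of mixed strain background and the NCoR allele is labelled as floxed in control mice and is not given for SMRT KO mice, and the part of either in these values was not tested.

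**Figure D5:**
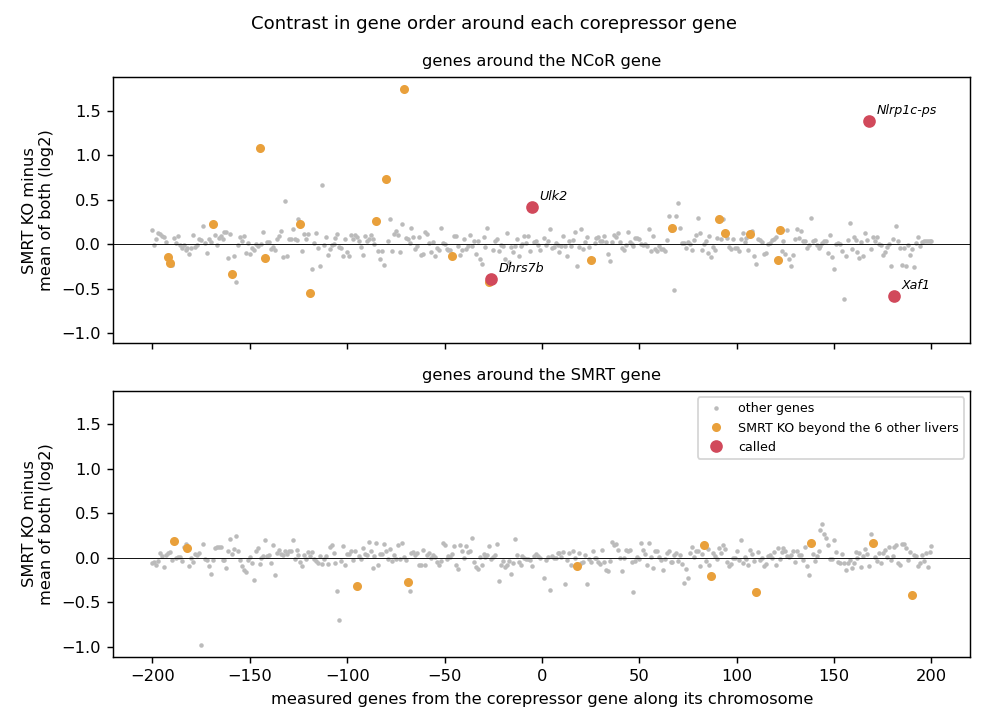
Contrast of SMRT KO minus the mean of both other groups (log2) for the 200 measured genes on each side of the NCoR gene (top) and the SMRT gene (bottom), in chromosome order counted in genes. Red points are called genes and orange points genes with all 3 SMRT KO values beyond the 6 other livers; 4 red points lie around the NCoR gene and 0 around the SMRT gene.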

How the data were processed

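Affymetrix whole-transcript arrays were run on liver RNA, 1 array for each of 9 mice, and the groups of 3 were taken from the sample titles. The authors deposited log2 values. Per the submitters' processing notes these came from RMA, whose version the sources used here do not give. RMA normalizes the arrays jointly and would hide a shift common to most genes. Of 41345 probe sets, 23521 had exactly 1 gene symbol in the platform annotation, 1814 had several and 16010 were not listed there. The probe set with the highest mean over the 9 arrays stood for a gene (1082 genes had several), which left 22180 genes with no filter on level.

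A single model of the 3 groups was fitted with limma 3.58.1 (lmFit, contrasts.fit, eBayes) under R 4.3.3, with 6 residual and 3.36 prior degrees of freedom and two-sided tests. The contrast gave control and double KO a weight of 0.5 each. A gene was called at a Benjamini-Hochberg adjusted p below 0.05, computed over all genes. All adjusted p-values come from limma. The fit and the count of genes with SMRT KO values beyond the 6 others were tested on simulated data. The other steps were not. The number of arrays limits the precision. The naming rule took up to 15 called genes per direction and up to 12 genes per direction apart in SMRT KO alone. It also took 6 per order, 11 chosen genes and up to 4 per list by p. The text leaves some of these genes out and says where it names genes outside the rule. The members, lists and named genes were chosen with earlier results of these data known, so lists are described by counts and medians and not tested. Promoters came from RefSeq (GRCm38.p6). The genotypes were not checked here.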

Additional observations from a re-analysis of the deposited data

How the results depend on the processing

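The contrast of each named gene that was refitted kept its direction under all alternatives. The count of 30 calls was between 0 and 16 when 1 liver was left out, 12 with array weights, 0 with control and double KO livers as 1 group (their difference then adds to the spread) and 86 at an adjusted p below 0.1. It stayed between 23 and 36 with other summaries of probe sets, a minimum level of 5, cyclic loess, array medians subtracted and other variance settings. The count of genes called against both groups separately, 0, was between 0 and 3 without 1 liver. The count of 442 genes apart in SMRT KO alone was between 486 and 1628 without 1 liver, where fewer values had to lie apart, and 287 at a minimum level of 7. The 104 genes in order were between 139 and 246 without 1 liver. Cyclic loess and array medians subtracted kept 320 and 295 of the 442, and 72 of the 104 each. The median of all genes moved by less than 0.1 under both, and the median of 1 list changed sign, that of autophagy genes (-0.001 as reported and 0.01 under cyclic loess). Some other lists with medians between -0.06 and 0.04 changed sign under other alternatives.

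Replicate numbers are shared between groups, and deviations of same-numbered livers correlated between -0.0845 and 0.117, with 4 of 9 livers closest to their own number, so the numbers were not taken to pair the mice. With the replicate block 8 genes were called (5 higher, 3 lower), 7 of them among the 30, and 1 against both groups separately.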
